A study of Homo sapiens with 12 samples.

Results

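The 53 genes described here encode the machinery of DNA replication and the enzymes that supply its nucleotides. Their messenger RNA was measured in HK-2, an immortal human line from the epithelium of the kidney's proximal tubule, with and without a compound that the labels name Kbr. The genes were chosen by symbol from a list of replication factors and enzymes of nucleotide synthesis, by a rule that uses no measured value although earlier results of these data were known, and each was read from 1 probe set, that with the highest mean over the 12 arrays among those annotated to it alone. All 53 were on the array and all 53 passed the filter on low values, out of 19775 genes on the array and 10574 that passed. They fall into 9 genes of origin recognition and licensing, the 6 subunits of the MCM2 to MCM7 helicase, 10 genes of helicase activation and the fork, 9 polymerase subunits, 11 genes of the clamp and lagging strand, 5 genes of nucleotide supply, and UHRF1, TCF19 and MCM8.

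Arrays of 3 biological replicates were made for each of 4 groups: Kbr at the high dose for 24 h, the control of that exposure for 24 h, Kbr at the high dose for 48 h, and its control for 48 h. All 4 groups are the same cell line, seeded 24 h before exposure in medium with epidermal growth factor, insulin and hydrocortisone, and the controls received vehicle. Which concentration the word high stands for is not stated in the labels. HK-2 cells carry papillomavirus E6 and E7 genes, whose products disable p53 and the E2F inhibitor RB. Values are log2 GCRMA values, a summary per probe set corrected for background binding, and a difference between groups is a log2 fold change. For the effect of Kbr, rose and fell mean higher and lower than control at the same time. Changes from 24 h to 48 h are named as such. Values of different genes are not set against each other, because probe sets differ in response.

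Replication starts at origins bound by the origin recognition complex, where CDC6 and CDT1 load the MCM2 to MCM7 helicase, a step called licensing, and geminin blocks further loading by CDT1. At the start of S phase the kinase CDC7 with its activator DBF4, together with MCM10, CDC45 and the GINS complex, turns the loaded helicase into a moving one. DNA polymerase alpha-primase lays primers, polymerases delta and epsilon extend them, PCNA is the clamp that holds polymerases on DNA, RFC loads that clamp, RPA coats single-stranded DNA, and FEN1 and LIG1 finish the lagging strand. Ribonucleotide reductase (RRM1 with RRM2), TYMS, TK1 and DUT set the supply and purity of the deoxynucleotides. Transcription of many of these genes is driven by E2F factors as cells approach S phase.

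Because E2F factors act at the promoters of many replication genes, the 250 bases upstream of the start site were searched in RefSeq's promoter table (GRCh38.p14). Of the 53 genes, 47 matched the table; POLD3, RPA2, MCM4, RPA3, MCM5 and GINS4 did not. The 47 genes have 65 promoters in the table, and a gene is counted where any of its promoters holds a match. Promoters of 6 genes are printed as examples, with CDC6, ORC3 and RFC3 from the genes that were higher with Kbr at 48 h and MCM6, POLA1 and LIG1 from those that were lower. How often matches occur in each direction is given below for all matched genes, not by these 6. CDC6 is at chr17:40287629-40287878, ORC3 at chr6:87589885-87590134, RFC3 at chr13:33817899-33818148 and POLA1 at chrX:24693668-24693917, all on the plus strand. MCM6 is at chr2:135876444-135876693 and LIG1 at chr19:48170345-48170594, both on the minus strand. Each is written 5′ to 3′ along its gene and ends at the base before the start site, and capitals mark matches on either strand to an E2F-type motif or to CCAAT.
CDC6: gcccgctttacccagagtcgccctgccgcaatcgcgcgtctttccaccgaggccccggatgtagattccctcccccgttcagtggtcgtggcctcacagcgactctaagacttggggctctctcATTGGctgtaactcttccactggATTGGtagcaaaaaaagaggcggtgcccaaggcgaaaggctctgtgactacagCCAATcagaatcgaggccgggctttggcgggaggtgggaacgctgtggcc
ORC3: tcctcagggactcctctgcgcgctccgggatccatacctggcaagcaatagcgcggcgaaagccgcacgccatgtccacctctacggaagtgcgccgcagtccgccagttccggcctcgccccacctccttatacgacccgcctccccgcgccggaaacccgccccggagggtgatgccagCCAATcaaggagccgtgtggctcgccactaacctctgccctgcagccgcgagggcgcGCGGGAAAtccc
RFC3: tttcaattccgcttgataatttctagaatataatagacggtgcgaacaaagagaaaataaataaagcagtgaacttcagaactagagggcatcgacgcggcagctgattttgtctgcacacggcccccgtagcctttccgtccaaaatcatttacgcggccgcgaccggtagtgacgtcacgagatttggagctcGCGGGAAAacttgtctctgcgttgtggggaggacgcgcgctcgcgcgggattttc
MCM6: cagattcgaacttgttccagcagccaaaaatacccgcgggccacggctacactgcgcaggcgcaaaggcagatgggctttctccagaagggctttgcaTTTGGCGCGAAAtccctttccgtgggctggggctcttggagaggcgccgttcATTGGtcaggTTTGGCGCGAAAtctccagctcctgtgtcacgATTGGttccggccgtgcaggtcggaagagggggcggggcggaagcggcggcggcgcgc
POLA1: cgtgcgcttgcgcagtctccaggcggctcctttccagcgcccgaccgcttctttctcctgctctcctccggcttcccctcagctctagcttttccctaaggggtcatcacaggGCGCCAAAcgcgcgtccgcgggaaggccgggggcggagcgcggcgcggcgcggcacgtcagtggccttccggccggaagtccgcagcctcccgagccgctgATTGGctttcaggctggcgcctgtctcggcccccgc
LIG1: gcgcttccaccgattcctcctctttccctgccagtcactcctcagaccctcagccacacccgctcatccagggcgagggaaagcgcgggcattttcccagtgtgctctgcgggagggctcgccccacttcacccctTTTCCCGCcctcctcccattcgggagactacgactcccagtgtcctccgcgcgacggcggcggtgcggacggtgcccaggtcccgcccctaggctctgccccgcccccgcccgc
The E2F-type motifs searched were TTTGGCGC, TTTCGCGC, TTTCCCGC and TTTGCCGC, on both strands. At least 1 of these 4 was found for 18 of the 47 genes (38.3%), against 928 of 27305 genes in the table (3.40%) and 979 of all 35116 promoters of that length (2.79%). CCAAT, the letters of the NF-Y box, was found on either strand for 29 of the 47 (61.7%), against 37.0% of the genes in the table. Promoters of the replication genes had a median GC content of 65.6%, against 58.0% over all promoters. In MCM6 the 4 E2F-type matches lie in 2 stretches, where TTTGGCGC on one strand overlaps TTTCGCGC on the other. CDC6 had 3 CCAAT matches and no match to these 4 motifs in this window. The search took exact matches only, and the CDC6 window holds tttggcgg, which differs from TTTGGCGC in its last base. Counts of E2F-type matches therefore leave out near forms of the motifs. Among matched genes, an E2F-type match was found in 1 of 7 that were higher with Kbr at 24 h and in 8 of 13 that were lower, with 9 of 27 among the rest. At 48 h it was found in 5 of 17 higher, 8 of 13 lower and 5 of 17 others. These matches describe letters in a window and were not measured as binding.

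Over the whole series, array medians lay between 2.89 and 2.96, and Kbr 48 h replicate 3 stood apart from the other Kbr 48 h arrays, deviating from its group's means by 0.290 (root mean square over genes) against 0.164 to 0.228 in the other 11 arrays. Over the 53 genes that deviation was 0.204, while control 48 h replicates 1 and 3 had 0.218 and 0.224. Keratin and junction markers of epithelium passed the filter, 5 of 5 listed, and KRT19 (log2 fold change -1.51 and -1.95 at 24 h and 48 h) and CDH1 (-2.17 and -2.60) were lower with Kbr in limma at both times. At 48 h KRT8 (-0.69) and EPCAM (-0.52) were also lower and KRT18 (0.43) higher. At 24 h KRT8 (-0.68) and EPCAM (-0.25) passed as lower only with the replicate number as a block in limma (adjusted p = 0.00159 and 0.0165). The log2 of that list's summed values was 14.62 to 14.87 in control and 14.18 to 14.40 in Kbr arrays at 24 h, and 14.47 to 14.78 against 14.12 to 14.29 at 48 h. Of 15 proximal tubule markers 13 were on the array and 3 passed (PAX8, CDH6 and GATM), while LRP2, CUBN, SLC34A1 and AQP1, which define that tubule, had means of 2.09 to 2.88 in control 24 h arrays. CDH6 (-1.06 and -2.57) and GATM (-0.91 and -1.51) were lower and PAX8 (0.55 and 0.56) higher with Kbr at both times, and the log2 of the summed tubule list was 12.97 to 13.29 in control and 12.39 to 12.71 in Kbr arrays at 24 h, and 12.89 to 13.27 against 11.83 to 11.97 at 48 h. Leukocyte markers passed the filter in 0 of 5 cases and endothelial markers in 1 of 5. Of 6 fibroblast markers COL1A1, DCN and LUM passed and were lower with Kbr at both times, with COL1A2, PDGFRA and PDGFRB below the filter; the log2 of the list's summed values was 12.37 to 12.88 in control and 11.42 to 11.83 in Kbr arrays at 24 h, and 12.28 to 12.34 against 10.18 to 10.60 at 48 h. The mean of the 18S ribosomal RNA probe sets was 7.53 to 7.75 in control and 7.82 to 8.35 in Kbr arrays at 24 h, and 7.93 to 8.30 against 8.32 to 8.78 at 48 h. Ratios of 3′ to 5′ probe sets for GAPDH and ACTB overlapped between the groups. Markers of cycling cells moved as well: the log2 of the summed values of 7 such genes was 13.42 to 13.73 in control and 13.86 to 13.97 in Kbr arrays at 24 h, and 12.87 to 13.11 against 13.52 to 13.72 at 48 h. At 24 h TOP2A (0.45) and CCNA2 (0.61) were called higher and CDK2 lower (-0.52, adjusted p = 0.0373 in limma), while MKI67, CCNE1, CCNE2 and E2F1 did not pass (0.34, -0.04, 0.25 and -0.27). At 48 h 5 of the 7 were called higher (MKI67 0.63, TOP2A 0.67, CCNA2 0.83, CCNE2 0.76 and E2F1 0.43), while CCNE1 (0.09) and CDK2 (-0.38, adjusted p = 0.0783) did not pass. With the replicate number as a block MKI67 passed in limma as higher at 24 h (adjusted p = 0.00593) and CDK2 as lower at 48 h (0.00336). The part of any of these in the results below was not tested. In a whole culture, fewer cells in S phase and less RNA per cell cannot be told apart.

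The replication genes did not all move in 1 direction with Kbr. Of 9 licensing genes 4 rose at 24 h and 8 at 48 h, all 6 of MCM2 to MCM7 fell at 24 h and 4 of them at 48 h, the catalytic subunits POLA1, PRIM1 and POLD1 fell at both times, and 4 of the 5 genes of nucleotide supply passed the test at neither time. At 24 h, 7 of the 53 genes were higher and 16 lower with Kbr in limma at an adjusted p under 0.05, where 32.4% of all tested genes were called (12.4% higher and 20.0% lower). At 48 h, 19 were higher and 15 lower, where 59.6% of all tested genes were called (26.9% higher and 32.8% lower). At 48 h the share of the 53 genes called, 34 of 53, was near that of all tested genes, so the total there says little about these genes and the results are read by function and by gene. The median log2 fold change of the 53 genes was -0.13 at 24 h and 0.09 at 48 h, against -0.06 over all tested genes at each time. Kbr arrays lay wholly above control arrays for 11 genes at 24 h and wholly below for 22, against 22.4% and 29.2% of all tested genes; at 48 h the numbers were 19 and 15, against 28.6% and 34.2%. All 7 genes higher at 24 h were also higher at 48 h, where they made up 7 of 19, and 13 of the 16 lower at 24 h were among the 15 lower at 48 h. No gene was called in opposite directions at the 2 times. Leaving out control 24 h replicate 1 left 14 of the 23 calls at 24 h, where 21.3% of all tested genes were called. Of the calls, 11 of 23 at 24 h and 26 of 34 at 48 h held in all 23 alternative analyses that kept the threshold. Genes with a single probe set, such as ORC6, had the same values when probe sets were averaged. The calls of GINS2 and POLA2 at 24 h and of TIMELESS at 48 h held wherever these genes were tested, but they were not tested when probe sets lacking the endings _x_at and _s_at were preferred.

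**Figure D1:**
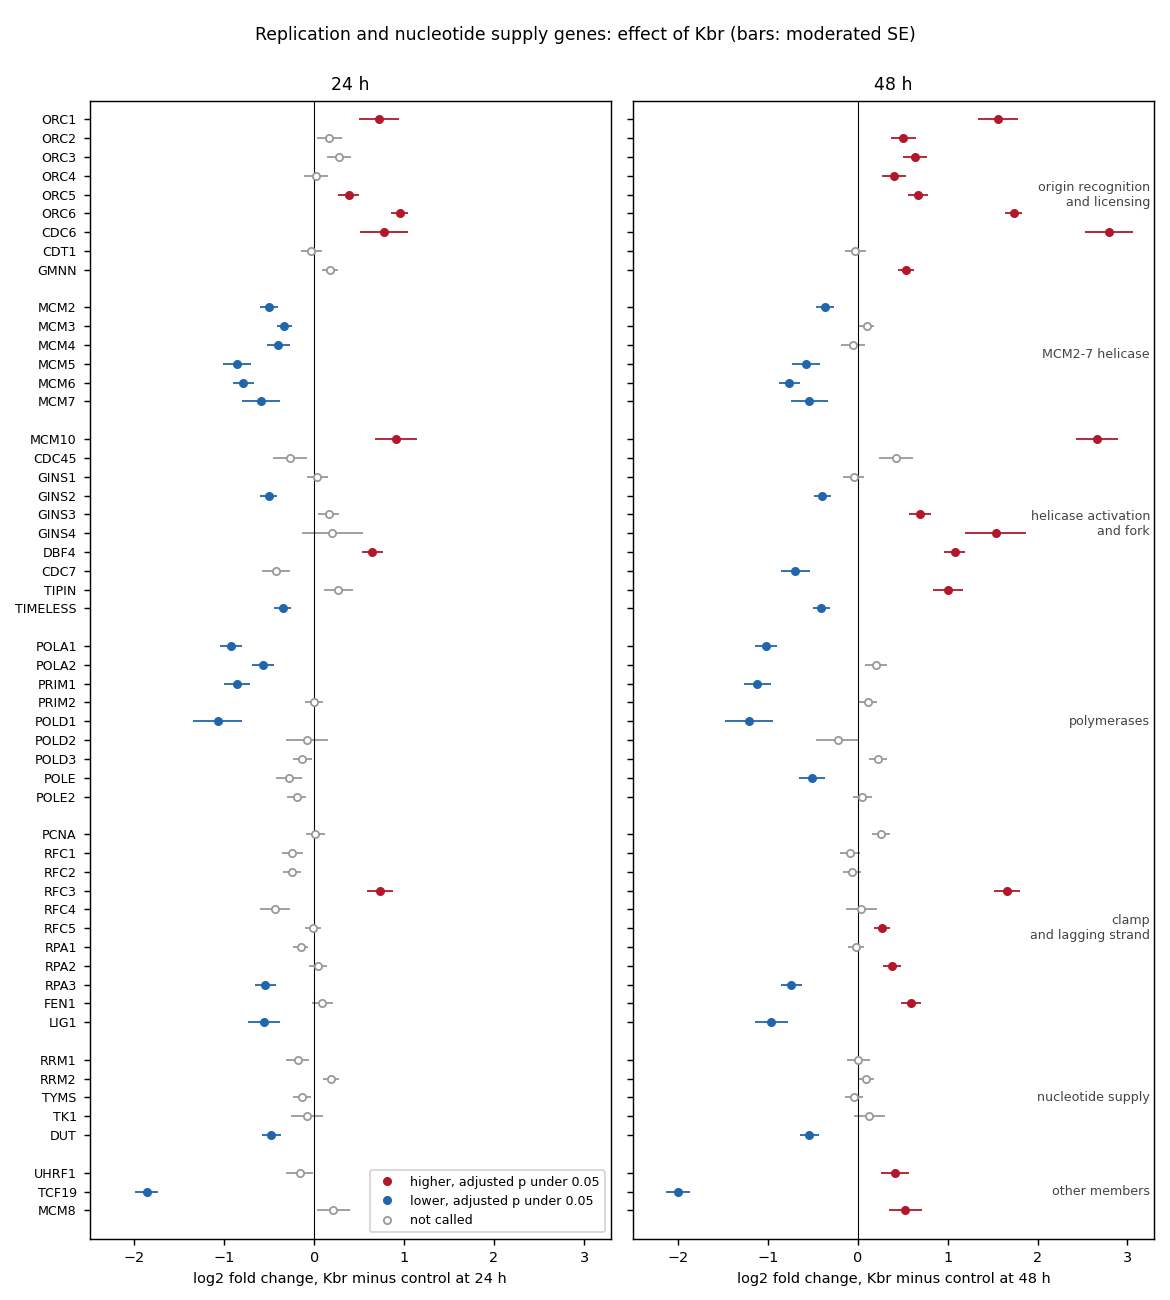
Log2 fold change of Kbr against control for each of the 53 genes at 24 h (left) and 48 h (right), with the moderated standard error as bars, grouped by function. Filled points passed an adjusted p of 0.05 in limma (red higher, blue lower) and open points did not; 8 of the 9 licensing genes are higher at 48 h, with CDC6 at 2.80 and CDT1 at -0.03, and TCF19 lies farthest left, at -1.86 and -2.00.

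Licensing genes were higher with Kbr. At 24 h, 4 of 9 were higher (ORC1, ORC5, ORC6 and CDC6) and 0 lower in limma, and at 48 h 8 of 9 were higher and 0 lower, with 0 lower at an unadjusted p under 0.05 at either time. Their median log2 fold change was 0.27 at 24 h and 0.63 at 48 h, and CDT1 was the member that passed at neither time. Over all tested genes 12.4% were higher at 24 h and 26.9% at 48 h.

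CDC6, the ATPase that brings the helicase to the origin complex, read 9.27, 9.37 and 9.63 in control 24 h arrays and 10.05, 10.29 and 10.26 in Kbr 24 h arrays (replicates 1 to 3 in order, as throughout). At 48 h it read 8.01, 8.34 and 8.73 in control and 11.55, 11.44 and 10.48 in Kbr arrays. The groups did not overlap at either time, and Kbr 48 h replicate 3 was clearly the lowest array of its group. The log2 fold change was 0.77 at 24 h (SE 0.26, adjusted p = 0.0441) and 2.80 at 48 h (SE 0.26, adjusted p = 8.88e-06), the latter a 6.95-fold difference. A second CDC6 probe set gave 0.78 and 2.59.

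ORC6, the smallest subunit of the origin complex, read 9.86, 9.96 and 9.98 in control and 10.89, 10.97 and 10.79 in Kbr arrays at 24 h. It read 9.18, 9.33 and 9.46 in control and 11.04, 11.09 and 11.05 in Kbr arrays at 48 h. Kbr arrays were higher than every control array at both times and varied little at 48 h. The log2 fold change was 0.95 (SE 0.09, adjusted p = 0.000114) and then 1.74 (SE 0.09, adjusted p = 5.52e-07), and both calls held in every alternative that kept the threshold. A single probe set, with the ending _x_at, is annotated to ORC6 alone, so no other probe set could be compared with it. ORC1, the ATPase subunit whose level follows the cell cycle, read 8.52, 8.41 and 8.42 in control and 9.11, 9.22 and 9.18 in Kbr arrays at 24 h, then 7.11, 7.21 and 8.07 in control and 8.72, 9.11 and 9.24 in Kbr arrays at 48 h. Its 48 h control arrays ranged widely, with replicate 3 closest to the Kbr arrays, and still did not overlap them. ORC1 differed by 0.72 (SE 0.22, adjusted p = 0.0295) at 24 h and 1.56 (SE 0.22, adjusted p = 0.000130) at 48 h.

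The remaining origin subunits moved less. ORC5 was higher by 0.38 and 0.67, and ORC2, ORC3 and ORC4 were higher at 48 h alone by 0.51, 0.63 and 0.41. With the replicate number as a block ORC3 also passed at 24 h (adjusted p = 0.0327). Geminin (GMNN), the inhibitor of CDT1, had a log2 fold change of 0.18 at 24 h (adjusted p = 0.147) and was higher with Kbr at 48 h by 0.54 (adjusted p = 0.000327). CDT1, its target, read 9.69, 9.50 and 9.53 in control and 9.57, 9.51 and 9.57 in Kbr arrays at 48 h, with overlapping groups and 95% intervals of the difference from -0.29 to 0.23 at 24 h and -0.29 to 0.23 at 48 h. Some of these calls did not hold in every alternative. CDC6 at 24 h did not pass without any 1 of the 6 24 h arrays or without control 48 h replicate 2 (adjusted p 0.0508 to 0.133), nor with arrays centred on their median (0.0533) or no filter on low values (0.112). ORC1 at 24 h did not pass without any 1 of the 6 24 h arrays (0.0609 to 0.0782) or with no filter (0.0781), and ORC5 at 24 h without control 24 h replicate 1 or Kbr 24 h replicate 2 or 3 (0.0782 to 0.102) or with its probe sets averaged (0.0839). ORC4 at 48 h did not pass without control 48 h replicate 1 or 3 or Kbr 48 h replicate 1 or 2 (0.0579 to 0.0952) or with the 48 h groups alone (0.0612), and ORC2 at 48 h not with its probe sets averaged (0.703), where its second probe set gave -0.42.

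**Figure D2:**
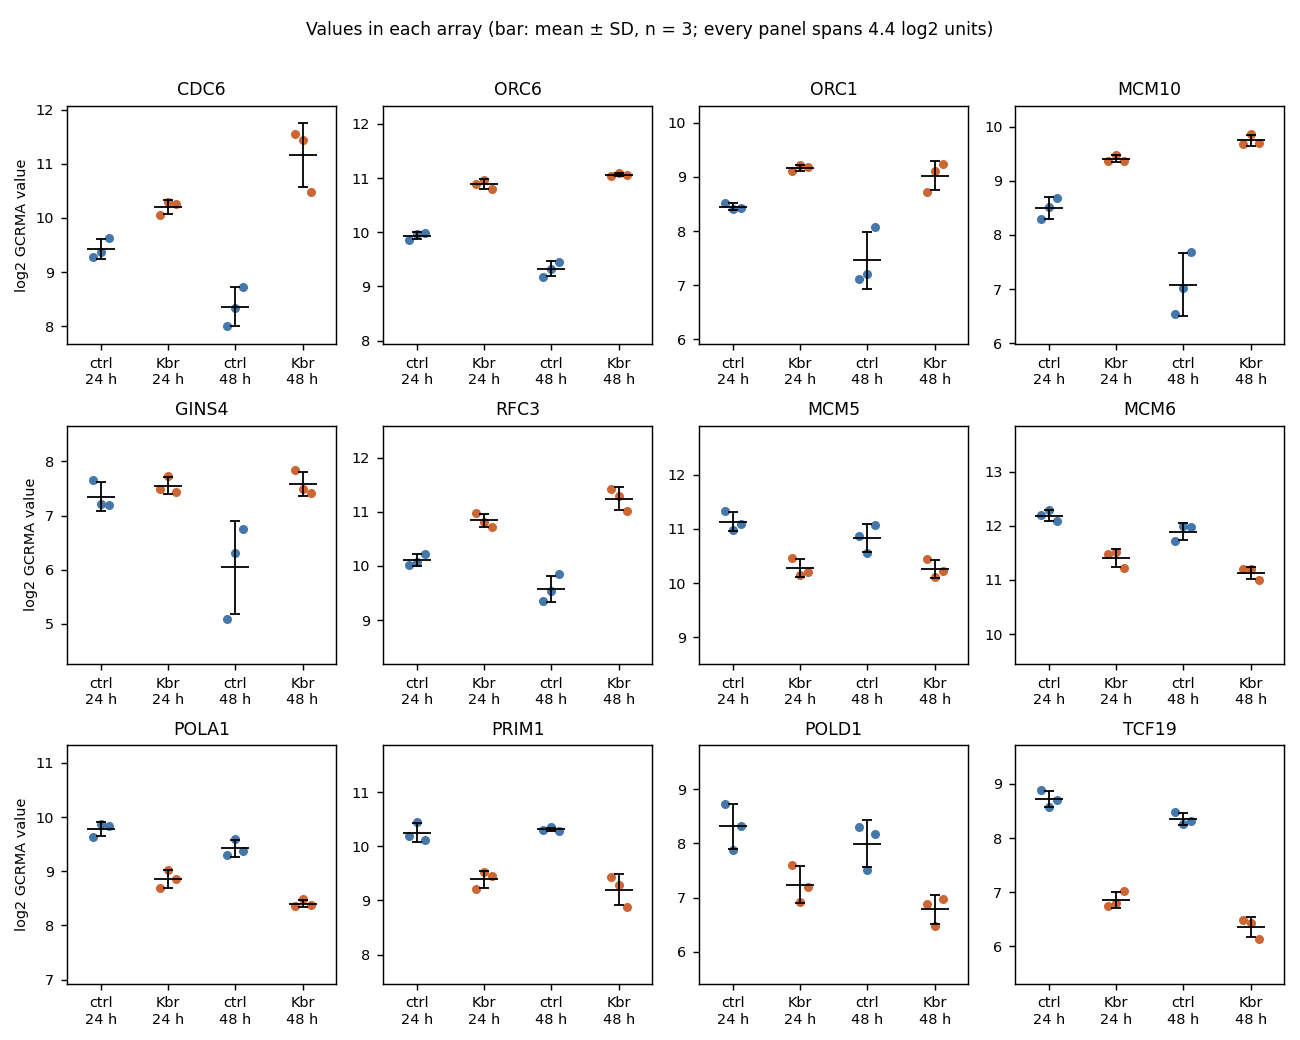
Log2 GCRMA values of 12 replication genes in each of the 12 arrays, with control arrays in blue and Kbr arrays in orange, and the mean ± SD of 3 arrays as bars; every panel spans the same log2 range. CDC6, ORC6, ORC1, MCM10 and RFC3 are higher in Kbr arrays at both times and their control arrays are lower at 48 h than at 24 h, GINS4 separates at 48 h, and MCM5, MCM6, POLA1, PRIM1, POLD1 and TCF19 are lower in Kbr arrays at both times.

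The helicase that licensing loads went the other way. All 6 of MCM2 to MCM7 were lower with Kbr at 24 h, and 4 of 6 at 48 h (MCM2, MCM5, MCM6 and MCM7), with 0 higher in limma and 0 higher at an unadjusted p under 0.05 at either time. Their median log2 fold change was -0.55 and -0.45. Over all tested genes 20.0% were lower at 24 h and 32.8% at 48 h.

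MCM5 read 11.33, 10.98 and 11.09 in control and 10.46, 10.15 and 10.20 in Kbr arrays at 24 h. It read 10.87, 10.56 and 11.08 in control and 10.44, 10.12 and 10.21 in Kbr arrays at 48 h. The groups did not overlap, though the lowest 48 h control array lay close to the highest Kbr array. The log2 fold change of MCM5 was -0.86 (SE 0.15, adjusted p = 0.00223) at 24 h and -0.58 (SE 0.15, adjusted p = 0.00758) at 48 h. MCM6 read 12.20, 12.29 and 12.08 in control and 11.47, 11.52 and 11.21 in Kbr arrays at 24 h, then 11.72, 11.99 and 11.97 in control and 11.20, 11.20 and 11.01 in Kbr arrays at 48 h. Every Kbr array of MCM6 was below every control array of its time by a clear margin. MCM6 fell by 0.79 (SE 0.12, adjusted p = 0.000858) and 0.76 (SE 0.12, adjusted p = 0.000248) on the log2 scale.

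MCM2 had log2 fold changes of -0.50 and -0.36, and MCM7 of -0.59 and -0.54. MCM3 and MCM4 were lower at 24 h, with log2 fold changes of -0.33 and -0.40. At 48 h MCM3 was at 0.10 (adjusted p = 0.324) and MCM4 at -0.05 (adjusted p = 0.744), neither passing the test. MCM4 at 48 h depended on the probe set, since others gave -0.23, -0.56 and 0.09. Of these -0.56 passed in a limma fit over all probe sets (adjusted p = 0.00901). In every alternative analysis run, all 6 subunits had a log2 fold change below 0 at 24 h, and leaving out single arrays left 4 to 6 of them called. MCM3 did not pass at 24 h without Kbr 24 h replicate 3 (adjusted p = 0.0530), and MCM4 not without control 24 h replicate 1 or 2 or any Kbr 24 h array (0.0706 to 0.123) or with no filter (0.0592). MCM7 at 24 h did not pass in 10 alternatives, namely without control 24 h replicate 1 or 3, control 48 h replicate 1, Kbr 24 h replicate 1 or 2 or Kbr 48 h replicate 1 or 2 (0.0554 to 0.177), with no filter (0.113), with the 24 h groups alone (0.0676) and with probe sets lacking the endings _x_at and _s_at preferred (just over 0.05). At 48 h MCM7 did not pass without control 24 h replicate 1, control 48 h replicate 1 or 3, Kbr 24 h replicate 1 or Kbr 48 h replicate 1 or 2 (0.0547 to 0.158) or with no filter (0.104). With the replicate number as a block MCM7 passed in limma at both times, with adjusted p of 0.000400 at 24 h and 0.000207 at 48 h. The fits in which MCM7 did not pass leave that pairing of arrays out.

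Genes of helicase activation and the fork were divided. Of 10, MCM10 and DBF4 were higher and GINS2 and TIMELESS lower at 24 h; at 48 h GINS3, GINS4 and TIPIN joined those higher and CDC7 those lower, which made 5 higher and 3 lower. The median log2 fold change was 0.10 at 24 h and 0.56 at 48 h. Over all tested genes 32.4% were called at 24 h and 59.6% at 48 h.

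MCM10, which helps to start the helicase and recruits polymerase alpha, read 8.28, 8.51 and 8.69 in control and 9.36, 9.47 and 9.37 in Kbr arrays at 24 h. At 48 h it read 6.54, 7.02 and 7.69 in control and 9.68, 9.86 and 9.69 in Kbr arrays. Kbr arrays of MCM10 were above all control arrays at both times, and the control arrays were lower and more spread at 48 h. The log2 fold change was 0.91 (SE 0.23, adjusted p = 0.0118) and 2.66 (SE 0.23, adjusted p = 4.94e-06), the latter a 6.33-fold difference. Without control 24 h replicate 1 the 24 h call did not pass (0.0515). Other MCM10 probe sets gave smaller differences in a limma fit over all probe sets. They were 0.38 (adjusted p = 0.141) and 0.45 (adjusted p = 0.0282) at 24 h, and 1.94 and 1.33 at 48 h.

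CDC7 and its activator DBF4 form 1 kinase, and their genes moved apart. DBF4 read 10.79, 10.68 and 10.98 in control and 11.58, 11.38 and 11.42 in Kbr arrays at 24 h, and 10.31, 10.40 and 10.64 in control and 11.51, 11.44 and 11.63 in Kbr arrays at 48 h. The groups of DBF4 did not overlap, and its log2 fold change was 0.64 (SE 0.12, adjusted p = 0.00238) and 1.08 (SE 0.12, adjusted p = 2.16e-05). CDC7 had a log2 fold change of -0.43 at 24 h (adjusted p = 0.0630; it passed with the replicate block at 0.00347, with array weights at 0.0255, and without control 24 h replicate 3 or Kbr 48 h replicate 3 at 0.0272 and 0.0415) and fell at 48 h by 0.70 (SE 0.16, adjusted p = 0.00311).

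The 4 GINS subunits, which form 1 complex on the helicase, also parted. GINS4 read 7.65, 7.20 and 7.19 in control and 7.50, 7.72 and 7.43 in Kbr arrays at 24 h, and 5.08, 6.30 and 6.75 in control and 7.84, 7.48 and 7.42 in Kbr arrays at 48 h. Its groups overlapped at 24 h and not at 48 h, where control replicate 1 was well below the other control arrays. GINS4 differed by 0.20 (SE 0.34, adjusted p = 0.684) at 24 h and 1.54 (SE 0.34, adjusted p = 0.00237) at 48 h. GINS3 was higher with Kbr at 48 h by 0.69, GINS2 was at -0.51 and -0.39 and lower at both times, and GINS1 passed at neither (0.03 and -0.04). GINS2 at 48 h did not pass with its probe sets averaged (adjusted p = 0.133), where its other probe sets had means of 3.21 and 2.52.

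TIMELESS and TIPIN, partners in the complex that protects the fork, went opposite ways. TIMELESS was lower, at -0.35 and -0.41, while TIPIN was at 0.27 at 24 h (adjusted p = 0.238) and higher by 1.01 at 48 h. TIMELESS did not pass at 24 h without control 24 h replicate 1 or 2 or Kbr 24 h replicate 1 or 3 (0.0521 to 0.0705) or with its probe sets averaged (0.0676). CDC45, the GINS partner in the active helicase, was at -0.27 and 0.42 (adjusted p = 0.295 and 0.0726), and passed at 48 h with the replicate block (0.0450), with array weights (0.0404), with quantile normalization (0.0439) and without control 48 h replicate 3 (0.0114).

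Among the polymerases the catalytic subunits POLA1, PRIM1 and POLD1 fell at both times, POLE fell at 48 h alone and the accessory subunit POLA2 at 24 h alone. At 24 h, 4 of 9 were lower (POLA1, POLA2, PRIM1 and POLD1) and 0 higher in limma; at 48 h, 4 were lower (POLA1, PRIM1, POLD1 and POLE) and 0 higher, with 0 and 1 higher at an unadjusted p under 0.05. The median log2 fold change was -0.28 and -0.22. Over all tested genes 20.0% were lower at 24 h and 32.8% at 48 h, so the polymerase count at 48 h says little by itself.

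POLA1, the catalytic subunit of polymerase alpha, read 9.63, 9.87 and 9.84 in control and 8.69, 9.02 and 8.86 in Kbr arrays at 24 h. The 48 h values were 9.30, 9.60 and 9.37 in control and 8.35, 8.48 and 8.38 in Kbr arrays. Kbr arrays were below all control arrays at both times. POLA1 fell by 0.93 (SE 0.12, adjusted p = 0.000407) and 1.02 (SE 0.12, adjusted p = 3.40e-05). PRIM1, the catalytic primase subunit, read 10.19, 10.45 and 10.12 in control and 9.22, 9.52 and 9.45 in Kbr arrays at 24 h, then 10.31, 10.35 and 10.28 in control and 9.43, 9.28 and 8.88 in Kbr arrays at 48 h. The groups of PRIM1 did not overlap, and its log2 fold change was -0.86 (SE 0.15, adjusted p = 0.00177) and -1.12 (SE 0.15, adjusted p = 8.21e-05). PRIM2, the other primase subunit, was at -0.0043 and 0.12.

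POLD1, the catalytic subunit of polymerase delta, read 8.73, 7.88 and 8.32 in control and 7.59, 6.92 and 7.19 in Kbr arrays at 24 h. It read 8.30, 7.50 and 8.17 in control and 6.89, 6.48 and 6.98 in Kbr arrays at 48 h. Replicate 2 was the lowest array in each of the 4 groups, and Kbr and control arrays did not overlap. POLD1 fell by 1.08 (SE 0.27, adjusted p = 0.0115) and 1.21 (SE 0.27, adjusted p = 0.00253); without control 24 h replicate 1 the 24 h call did not pass (0.0515). The accessory subunits POLD2 and POLD3 were at -0.08 and -0.13 at 24 h and at -0.22 and 0.23 at 48 h, with POLD3 at 48 h passing with the replicate block (0.0433), array weights (0.0357) or averaged probe sets (0.0172). POLE, the catalytic subunit of polymerase epsilon, was at -0.28 at 24 h (adjusted p = 0.163, and 0.0304 with the block or 0.0452 without control 24 h replicate 2) and fell by 0.50 at 48 h (adjusted p = 0.0115), while its partner POLE2 was at -0.20 and 0.05.

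POLA2, the accessory subunit of polymerase alpha, was an exception in time. It read 8.05, 7.94 and 8.16 in control and 7.29, 7.61 and 7.56 in Kbr arrays at 24 h, and 7.31, 7.23 and 7.58 in control and 7.64, 7.55 and 7.55 in Kbr arrays at 48 h. Kbr arrays were below control at 24 h without overlap, and the groups overlapped at 48 h. Its log2 fold change was -0.57 (SE 0.12, adjusted p = 0.00522) and 0.20 (SE 0.12, adjusted p = 0.171).

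In the clamp and lagging strand group 1 of 11 genes was higher and 2 lower at 24 h, and 4 higher and 2 lower at 48 h, with medians of -0.15 and 0.04. These counts are near the shares of all tested genes called, 32.4% and 59.6%, and say little by themselves. With the replicate block 6 of 11 were called at 24 h, since RFC1, RFC2 and RFC4 then passed as lower (adjusted p = 0.0265, 0.0393 and 0.0252), where 48.0% of all tested genes were called. RFC2 also passed with array weights (0.0413), averaged probe sets (0.0238) or probe sets lacking the endings _x_at and _s_at preferred (0.0246). RFC4 also passed with array weights (0.0175), with the 24 h groups alone (0.0367) and without Kbr 48 h replicate 3 (0.0135).

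PCNA, the clamp itself, read 13.82, 13.82 and 13.71 in control and 13.84, 13.88 and 13.67 in Kbr arrays at 24 h. The 48 h values were 13.31, 13.57 and 13.61 in control and 13.70, 13.84 and 13.72 in Kbr arrays. The 24 h groups overlapped, and at 48 h each Kbr array was above all control arrays by a small margin. The log2 fold change was 0.01 at 24 h (95% interval -0.22 to 0.24, adjusted p = 0.944) and 0.26 at 48 h (95% interval 0.03 to 0.49, adjusted p = 0.0521). PCNA passed as higher at 48 h in 6 alternatives, namely with the block (0.0311), array weights (0.0194), a trended and robust spread (0.0201), averaged probe sets (0.0368), 32 added before taking logs (0.0384) and without control 48 h replicate 3 (0.0408).

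The clamp loader, with 1 large subunit (RFC1) and 4 small ones, was divided. RFC3 read 10.02, 10.08 and 10.22 in control and 10.98, 10.81 and 10.73 in Kbr arrays at 24 h, then 9.36, 9.53 and 9.84 in control and 11.41, 11.30 and 11.01 in Kbr arrays at 48 h. Its groups were well apart at both times. RFC3 rose by 0.73 (SE 0.15, adjusted p = 0.00366) and 1.66 (SE 0.15, adjusted p = 5.49e-06). RFC5 rose at 48 h by 0.27 (adjusted p = 0.0219), which did not pass without control 48 h replicate 1 or 2 or Kbr 48 h replicate 1 or 2 (0.0535 to 0.0778), with the 48 h groups alone (0.0805) or with its probe sets averaged (0.0963). RFC1, RFC2 and RFC4 were at -0.09, -0.06 and 0.04 at 48 h and did not pass.

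RPA's 3 subunits parted too. RPA3, the smallest, was lower, at -0.54 and -0.74, RPA2 was higher at 48 h by 0.38, and RPA1, the largest, was at -0.15 and -0.02 and passed at neither time. LIG1, the ligase that seals lagging strand fragments, read 9.02, 8.63 and 8.87 in control and 8.41, 8.15 and 8.27 in Kbr arrays at 24 h. It read 8.27, 8.21 and 8.63 in control and 7.23, 7.19 and 7.80 in Kbr arrays at 48 h, where Kbr replicate 3 was the highest of its group. The groups did not overlap at either time, and LIG1 fell by 0.56 (SE 0.18, adjusted p = 0.0343) and 0.96 (SE 0.18, adjusted p = 0.000864). The 24 h call of LIG1 did not pass without control 24 h replicate 1 or 3 or any 1 Kbr 24 h array (0.0505 to 0.124), or with no filter (0.0796). FEN1, the nuclease that trims the same fragments, was at 0.09 at 24 h and was higher with Kbr by 0.59 at 48 h (adjusted p = 0.00108).

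Nucleotide supply genes changed little in number, with 1 of 5 lower at each time and 0 higher in limma, and 0 higher at an unadjusted p under 0.05. Over all tested genes 20.0% were lower at 24 h and 32.8% at 48 h, so these counts say little by themselves. The median of the 5 genes was -0.13 at 24 h and 0.00 at 48 h. The latter became -0.01 with arrays centred on their median and -0.02 with quantile normalization. The gene that fell was DUT, the enzyme that removes dUTP and so keeps uracil out of DNA. DUT read 12.65, 12.46 and 12.52 in control and 12.22, 12.03 and 11.95 in Kbr arrays at 24 h, and 12.41, 12.37 and 12.44 in control and 12.04, 11.81 and 11.75 in Kbr arrays at 48 h. Its Kbr arrays were below all control arrays, with log2 fold changes of -0.48 (SE 0.11, adjusted p = 0.00683) and -0.54 (SE 0.11, adjusted p = 0.00130).

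RRM2, the regulated subunit of ribonucleotide reductase, read 13.86, 13.81 and 13.98 in control and 14.09, 14.07 and 14.05 in Kbr arrays at 24 h. At 48 h it read 13.34, 13.44 and 13.53 in control and 13.48, 13.48 and 13.62 in Kbr arrays. Kbr arrays were slightly above control at 24 h and overlapped it at 48 h. The differences were 0.19 (95% interval -0.01 to 0.39, adjusted p = 0.123, and 0.0491 with the block or 0.0444 with a trended and robust spread) and 0.09 (95% interval -0.11 to 0.29). A second RRM2 probe set gave -0.04 and -0.25 and did not pass in a limma fit over all probe sets. RRM1, the large subunit, read 11.71, 11.88 and 11.80 in control and 11.72, 11.62 and 11.50 in Kbr arrays at 24 h, then 11.26, 11.57 and 11.53 in control and 11.57, 11.60 and 11.21 in Kbr arrays at 48 h. Its groups overlapped at both times, and the 95% intervals of the difference ran from -0.47 to 0.10 and from -0.28 to 0.29.

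TYMS, which makes thymidylate, read 13.64, 13.41 and 13.48 in control and 13.46, 13.30 and 13.37 in Kbr arrays at 24 h, then 13.15, 12.97 and 13.21 in control and 13.10, 13.00 and 13.11 in Kbr arrays at 48 h. The groups of TYMS overlapped, with differences of -0.13 (95% interval -0.35 to 0.09) and -0.04 (-0.26 to 0.18). TK1, the salvage kinase for thymidine, read 11.75, 11.64 and 11.86 in control and 11.62, 11.59 and 11.79 in Kbr arrays at 24 h, then 10.99, 11.01 and 11.56 in control and 11.25, 11.07 and 11.63 in Kbr arrays at 48 h. Replicate 3 was the highest array of TK1 in every group, the groups overlapped, and the differences were -0.08 (95% interval -0.47 to 0.30) and 0.13 (-0.25 to 0.51). A difference of 1 log2 unit in either direction lies outside the interval of each of these 4 genes at both times.

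**Figure D3:**
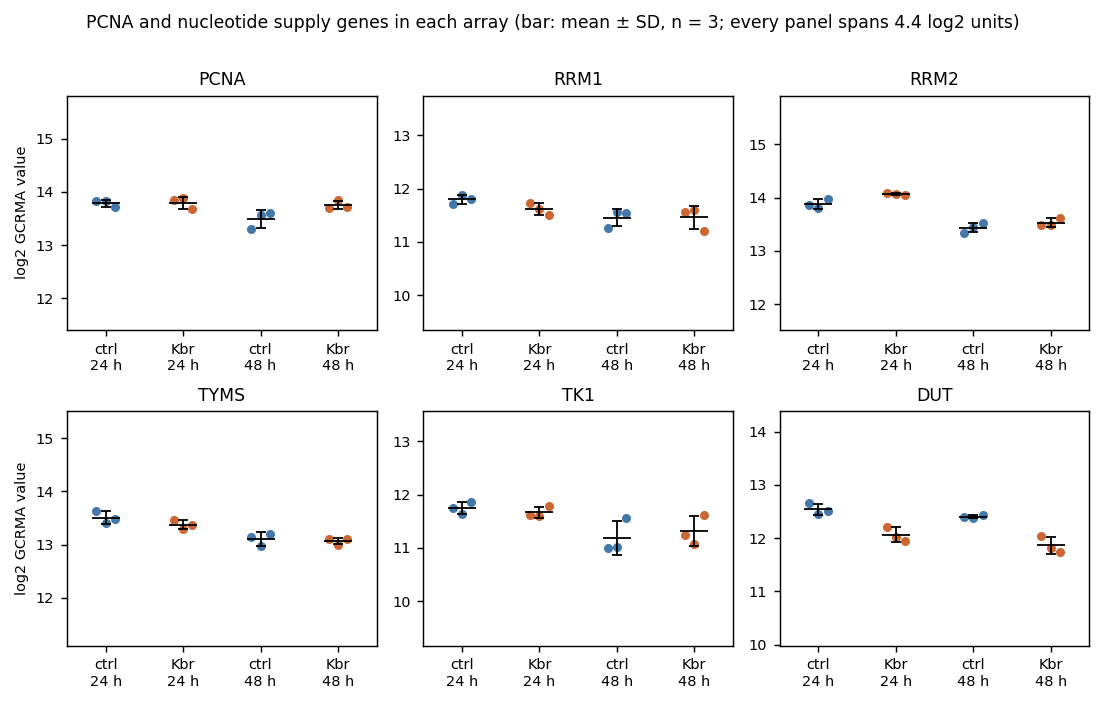
Log2 GCRMA values of PCNA and the 5 nucleotide supply genes in each of the 12 arrays, with control arrays in blue and Kbr arrays in orange, and the mean ± SD of 3 arrays as bars; every panel spans the same log2 range. DUT is the gene whose Kbr arrays lie below control at both times, while RRM1, TYMS and TK1 overlap and RRM2 is lower at 48 h than at 24 h in both groups.

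TCF19, a growth-regulated nuclear protein, had the largest fall of the 53 genes. It read 8.89, 8.58 and 8.70 in control and 6.74, 6.81 and 7.02 in Kbr arrays at 24 h, and 8.48, 8.26 and 8.31 in control and 6.49, 6.44 and 6.14 in Kbr arrays at 48 h. Kbr arrays were more than 1 log2 unit below every control array. TCF19 fell by 1.86 (SE 0.13, adjusted p = 1.46e-05) and 2.00 (SE 0.13, adjusted p = 1.13e-06). MCM8, a helicase of recombination related to the MCM2 to MCM7 subunits, read 9.24, 9.45 and 9.27 in control and 10.07, 10.08 and 9.41 in Kbr arrays at 48 h. Kbr replicate 3 of MCM8 lay among the control arrays. MCM8 was at 0.21 at 24 h (adjusted p = 0.401) and was higher with Kbr by 0.53 at 48 h (SE 0.18, adjusted p = 0.0261). The 48 h call of MCM8 did not pass without control 48 h replicate 1 or 3 or Kbr 48 h replicate 1 or 2 (0.0665 to 0.101), with the 48 h groups alone (0.0634) or with no filter (0.0625). UHRF1, which keeps DNA methylation through replication, was at -0.16 at 24 h (adjusted p = 0.443) and was higher with Kbr by 0.42 at 48 h (adjusted p = 0.0359). From 24 h to 48 h UHRF1 changed by -0.89 in control and by -0.31 in Kbr cultures. The UHRF1 call did not pass without control 48 h replicate 1 or 2 or Kbr 48 h replicate 1 or 3 (0.0854 to 0.125), with array weights (0.086), with the 48 h groups alone (0.058) or with no filter (0.072).

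Control cultures themselves changed between 24 h and 48 h. These comparisons share their arrays with the ones above, so their values are given side by side and are not separate evidence. In control cultures 15 of the 53 genes were lower at 48 h and 0 higher in limma, with 0 higher at an unadjusted p under 0.05, where 4.03% of all tested genes were called (1.73% higher and 2.30% lower). The median change was -0.35, against -0.03 over all tested genes, and 49 of 53 values were below 0. MCM10 fell by 1.41 (SE 0.23, adjusted p = 0.0155), CDC6 by 1.07 (adjusted p = 0.0494), ORC1 by 0.99 (adjusted p = 0.0379), CDC45 by 0.92 (adjusted p = 0.0283) and UHRF1 by 0.89 (adjusted p = 0.0182). None of the 15 calls held in all 23 alternatives that kept the threshold; they numbered 28 with the replicate block, where 20.8% of all tested genes were called. They numbered 0 with the control groups alone, with 32 at an unadjusted p under 0.05. In that setting 0% of all tested genes were called, so no gene could hold in all 23 alternatives. Leaving out 1 array gave 0 without control 24 h replicate 3, 1 without control 48 h replicate 2, 2 without control 48 h replicate 1, 4 without control 24 h replicate 1 and 7 without control 24 h replicate 2. In the same order 0.265%, 0.643%, 0.549%, 1.87% and 2.93% of all tested genes were called.

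In Kbr cultures 1 gene was higher and 7 were lower at 48 h than at 24 h, where 17.1% of all tested genes were called (7.12% higher and 10.0% lower), with a median of -0.10 against -0.02 over all tested genes. CDC6 rose by 0.95 (SE 0.26, adjusted p = 0.0325), where it fell in control cultures. LIG1 fell by 0.87 (adjusted p = 0.0105), GINS1 by 0.55 (adjusted p = 0.0105), RRM2 by 0.54 (adjusted p = 0.00391) and TIMELESS by 0.51 (adjusted p = 0.00730). In control cultures the same 4 genes changed by -0.47, -0.47, -0.44 and -0.45. The calls of LIG1, GINS1 and RRM2 held in every alternative that kept the threshold, and that of TIMELESS in all of them but the choice of probe sets lacking the endings _x_at and _s_at, where it was not tested. The rise of CDC6 did not pass without any 1 Kbr 24 h array or Kbr 48 h replicate 1 or 2 (0.0652 to 0.124), with the Kbr groups alone (0.0874) or with no filter (0.0888). The 8 calls numbered 18 with the replicate block, where 33.8% of all tested genes were called. They came to 14 leaving out Kbr 48 h replicate 3, 5 leaving out Kbr 48 h replicate 1, and 4 leaving out Kbr 24 h replicate 2 or 3 or Kbr 48 h replicate 2. In the same order 26.9%, 7.93% and 6.81% to 10.5% of all tested genes were called.

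The difference between the effects at 48 h and 24 h was tested directly. It passed for 5 of the 53 genes, all with a more positive effect at 48 h and 0 more negative in limma (0 at an unadjusted p under 0.05), where 5.58% of all tested genes were called (2.09% more positive and 3.49% more negative). The median difference was 0.25, against 0.01 over all tested genes. CDC6 differed by 2.02 (SE 0.37, adjusted p = 0.0184) and MCM10 by 1.75 (SE 0.32, adjusted p = 0.0184). RFC3 differed by 0.93 (SE 0.21, adjusted p = 0.0312), ORC6 by 0.79 (SE 0.13, adjusted p = 0.0144) and POLA2 by 0.77 (SE 0.17, adjusted p = 0.0312). For MCM10 the control arrays fell by 1.41 with time and the Kbr arrays changed by 0.34 (adjusted p = 0.337), and for POLA2 the values were -0.68 and 0.09. For RFC3 they were -0.53 (adjusted p = 0.0665) and 0.40 (adjusted p = 0.0813), and for ORC6 -0.61 and 0.18.

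ORC6 was the gene whose difference passed in every alternative that kept the threshold. It has a single probe set, with the ending _x_at, so the other choices of probe set could not change its values. The difference of CDC6 did not pass without control 24 h replicate 3 (adjusted p = 0.0515) or Kbr 24 h replicate 1 (0.0511), and that of MCM10 not without control 24 h replicate 3 (0.0515). The difference of POLA2 did not pass without control 24 h replicate 3, control 48 h replicate 1 or 2, any 1 Kbr 24 h array or Kbr 48 h replicate 1 or 2 (0.0518 to 0.0814), or with its probe sets averaged (0.123). RFC3 did not pass without the same arrays or control 24 h replicate 2 (0.0556 to 0.0814), or with no filter (0.0558). The 5 calls numbered 11 with the replicate block, where 20.2% of all tested genes were called. They came to 9 leaving out Kbr 48 h replicate 3, 8 leaving out control 48 h replicate 3, 1 leaving out control 24 h replicate 3 and 2 leaving out Kbr 24 h replicate 1. They numbered 3 without Kbr 24 h replicate 2 or 3, Kbr 48 h replicate 1 or 2, or control 48 h replicate 1 or 2.

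**Figure D4:**
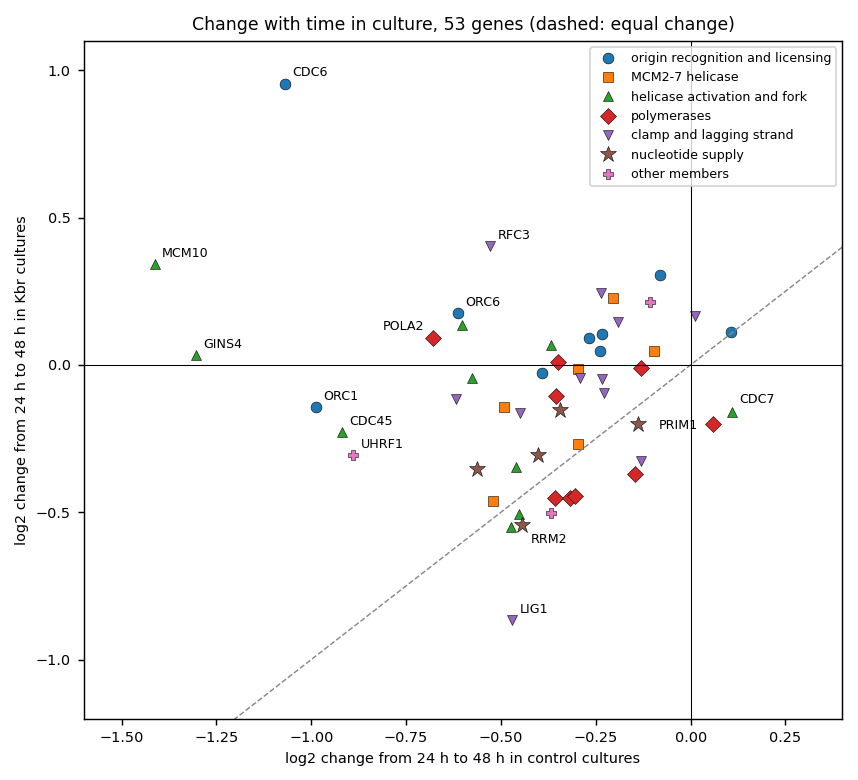
Log2 change from 24 h to 48 h in control cultures (horizontal) and in Kbr cultures (vertical) for each of the 53 genes, marked by function; the dashed line is equal change, and the height above it is the difference between the effects of Kbr at 48 h and 24 h. CDC6 lies at -1.07 and 0.95, MCM10 at -1.41 and 0.34, LIG1 at -0.47 and -0.87, and 49 of the 53 genes lie left of 0.

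Other genes of the pathway were taken from a list of 60 replication, chromatin assembly and nucleotide genes outside the 53. Of these, 58 were analysed and 56 passed the filter, with SHMT1 and TYMP below it. With Kbr 10 were higher and 12 lower at 24 h, and 25 higher and 13 lower at 48 h, with medians of -0.01 and 0.12. These totals, 22 of 56 and 38 of 56, were near the shares of all tested genes called, 32.4% and 59.6%, and say little about this list. POLD4, the smallest subunit of polymerase delta, read 7.98, 8.14 and 8.10 in control and 6.66, 6.14 and 6.79 in Kbr arrays at 24 h, then 7.61, 7.75 and 8.09 in control and 4.93, 5.42 and 6.35 in Kbr arrays at 48 h. POLD4 fell by 1.54 (SE 0.30, adjusted p = 0.00347) and 2.25 (SE 0.30, adjusted p = 9.13e-05), in the direction of POLD1. Among the nucleotide genes, TK2, the mitochondrial thymidine kinase, fell by 1.15 and 0.95, CAD, which starts pyrimidine synthesis, by 0.89 and 1.35, and the nucleotidase NT5C by 0.68 and 1.37. NT5C at 24 h did not pass without control 24 h replicate 1 (adjusted p = 0.0632) or Kbr 24 h replicate 3 (0.0554), or with its probe sets averaged (0.0516). CDC25A, the phosphatase that activates CDK2 for S phase entry, rose by 0.80 (adjusted p = 0.00575) and 1.69 (adjusted p = 1.48e-05). All these calls were made in limma over all tested genes.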

How the data were processed

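Gene expression was measured on 12 Affymetrix arrays of HK-2 cells, 4 groups of 3 biological replicates grouped by the labels. Each value is a deposited log2 intensity summary per probe set, which the authors computed with GCRMA, per the submitters' processing notes (version not stated); array settings and a genome build are not given in the sources used here. Of 54675 probe sets 41091 carry 1 gene symbol, and the probe set with the highest mean stood for each of 19775 genes. The members and gene lists were chosen with earlier results of these data known.

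Genes with a log2 value over 4 in at least 3 arrays were tested (10574 genes) two-sided with the lmFit and eBayes functions of limma 3.58.1 (R 4.3.3). A single fit covered the 12 arrays, its residual degrees of freedom were 8 and its prior ones 2.87, with Benjamini-Hochberg adjustment over all tested genes and calls at an adjusted p under 0.05. SE is the moderated standard error, 95% intervals use the same fit, and the number of arrays limits the precision. The fit was tested on simulated data. Python 3.11.15 with pandas 2.3.3 and matplotlib 3.10.9 produced the summaries and figures.

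Arrays with the same replicate number in the labels deviated together from their group means (r 0.232 to 0.633 in 18 pairs, against -0.378 to -0.004 in 36 pairs with different numbers), so the numbers pair the arrays; a fit blocked on that number, with 6 residual degrees of freedom, is quoted where a call changes under it or a count moves by over 1.5 times. Values in every array are given for the 2 called genes of each functional group with the largest change at each time, for PCNA, RRM1, RRM2, TYMS and TK1; in the other comparisons the 5 called genes with the largest change are named (3 at each time for the other pathway genes), and further genes were chosen after their values were seen. Alternatives were a stricter threshold or a 2-fold minimum, other filters, other choices of probe set, centred or quantile normalized arrays, 32 added before taking logs, the replicate block, array weights, fits of only the compared groups, a trended and robust spread, and each array left out in turn.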

Additional observations from a re-analysis of the deposited data

Results flagged for a closer look

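The difference between the effects of Kbr at 48 h and 24 h was itself tested in limma. It passed an adjusted p under 0.05 for 5 of the 53 replication genes and 3 of the 56 other pathway genes. Over all tested genes 590 of 10574 (5.58%) passed. Of the replication genes described above, these were CDC6 with a difference of 2.02 on the log2 scale, MCM10 with 1.75, RFC3 with 0.93, ORC6 with 0.79 and POLA2 with 0.77. In POLA2 the effect went from -0.57 to 0.20, and in the other 4 Kbr arrays were above control at 24 h and further above it at 48 h. From 24 h to 48 h the Kbr arrays of MCM10, ORC6 and RFC3 changed by 0.34, 0.18 and 0.40, not called in limma. Their control arrays changed by -1.41, -0.61 and -0.53. For CDC6 the changes were 0.95 in Kbr and -1.07 in control arrays. From the other genes of the pathway 3 of 56 passed, near the share of all tested genes, and this count says little about that list. The difference was 0.75 for TOP1 (adjusted p = 0.0231), the topoisomerase that relaxes DNA ahead of the fork, whose effect went from 0.48 to 1.22. It was 0.66 for MCMBP (adjusted p = 0.0446), an MCM-binding protein, whose effect went from 0.29 to 0.95. For IMPDH2, which makes guanine nucleotide precursors, the difference was -0.63 (adjusted p = 0.0346), with effects of -0.48 and -1.11. These differences use the same control and Kbr arrays as the changes with time given above.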

How the results depend on the processing

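Counts of called genes moved by more than 1.5 times in these settings. At an adjusted p under 0.01 in limma, 13 of the 53 genes were called at 24 h (23 at 0.05), 2 for Kbr 48 h against 24 h (8 at 0.05), and 0 for the difference between the effects (5 at 0.05) and for control 48 h against 24 h (15 at 0.05), with 18 and 34 at an unadjusted p under 0.05. In the same order 17.3%, 4.80%, 0.303% and 0.293% of all tested genes passed 0.01. With a change of at least 2-fold required, 2 were called at 24 h, 12 at 48 h, 2 for the difference, 2 for control cultures with time and 0 for Kbr cultures with time (16 at an unadjusted p under 0.05), and of the other pathway genes 2 at 24 h (22 without it) and 10 at 48 h (38 without it). Of all tested genes 7.24% then passed at 24 h, 23.4% at 48 h, 2.61% for the difference, 0.927% for control and 3.21% for Kbr cultures with time. The 12 of 53 at 48 h was near that share and says little by itself. Array weights gave 13 for the difference and 23 for Kbr cultures with time, where 16.8% and 40.7% of all tested genes were called. With only the groups compared, control cultures with time gave 0 (32 at an unadjusted p under 0.05) and Kbr cultures 4, where 0% and 8.44% of all tested genes were called. The replicate block, which pairs the arrays, gave 11 for the difference, 28 for control cultures with time and 18 for Kbr cultures with time (20.2%, 20.8% and 33.8% of all tested genes), and among the 53 genes at 24 h and at 48 h it changed only the calls named with the genes above. Leaving out 1 array gave 14 to 25 calls at 24 h, 29 to 34 at 48 h, 1 to 9 for the difference, 0 to 20 for control and 4 to 14 for Kbr cultures with time, and 16 to 26 and 34 to 38 for the other pathway genes. For 77 single results, 1729 of 1910 alternative values kept direction and call, 169 kept direction and were no longer called, 12 became called and 0 reversed. With 3 arrays a group, small differences were not detectable; the cause of a lost call was not tested.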

Other observations

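Some genes around replication that the account above did not name were also divided. They were chosen after their values were seen and do not stand for the whole list. Over all tested genes 32.4% were called at 24 h and 59.6% at 48 h. Of the histone chaperones that assemble chromatin behind the fork, ASF1A rose with Kbr (log2 0.87 at 24 h and 1.13 at 48 h), while its paralogue ASF1B fell by 0.65 and 0.69, all 4 called in limma. CHAF1A, the large subunit of chromatin assembly factor 1, was at -0.06 at 24 h (adjusted p = 0.785) and was higher with Kbr by 0.59 at 48 h, and CHAF1B passed at neither time (-0.16 and 0.02). The checkpoint mediator CLSPN rose by 0.58 and 0.93, and RIF1, a regulator of replication timing, rose by 0.64 and 1.31. RNASEH2A, the catalytic subunit of the nuclease that removes ribonucleotides from DNA, fell by 0.52 and 0.75.

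Genes of purine and pyrimidine synthesis chosen in the same way moved in both directions, and other such genes of the list are not described here. Their calls stand beside 32.4% of all tested genes called at 24 h and 59.6% at 48 h. PPAT, which catalyses the first committed step, rose by 0.69 and 0.96, while PFAS fell by 0.41 and 0.71 and IMPDH2 fell by 0.48 and 1.11, all called at both times. Of the pyrimidine enzymes, UMPS rose by 0.43 and 1.02 and CTPS2 fell by 0.58 and 0.86 at the 2 times. Its paralogue CTPS1 was at 0.26 at 24 h (adjusted p = 0.0838) and was higher with Kbr by 0.61 at 48 h.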
